A study of Homo sapiens with 8 samples.

Results

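FAM72A, FAM72B, FAM72D and SRGAP2 were followed across the 4 groups of an array experiment in BE2C, a human neuroblastoma cell line with amplified MYCN. They are 4 of the 17687 genes with a named probe set on the Clariom S human array, and each was read by 1 probe set. The 3 FAM72 genes were selected on their GSK-J4 minus DMSO difference, being far lower with GSK-J4, and SRGAP2 was chosen as the neighbour of FAM72A, so their GSK-J4 values are given as a description with no test. The selection did not use the siRNA difference, so the members were tested on it, although earlier results of all 8 arrays were known when they were chosen. Of 17687 genes ordered by their GSK-J4 difference from the largest fall, FAM72B ranked 5, FAM72A 6 and FAM72D 10, while SRGAP2 ranked 8391. FAM72C, a further copy outside the selection, ranked 13 and is described beside them, as are SRGAP2B and SRGAP2C. All 7 copies lay above the array background, the 95th percentile of the negative control probe sets, on all 8 arrays.

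The groups held 2 arrays each, labelled as biological replicates. BE2C cells received GSK-J4, a cell-permeable inhibitor of the histone H3 lysine 27 demethylases KDM6A and KDM6B, for 24 h, with 0.1% DMSO for 24 h as the vehicle. Other BE2C cells were transfected with KDM6B siRNA or with control siRNA, each at 30 nM, for 48 h. The labels write the GSK-J4 dose as 2.5 mM, whereas the study used micromolar doses on cells, so the unit is uncertain. Which KDM6B siRNA sequence each array received is not given in the sources used here, and all 8 arrays come from 1 cell line. Values are deposited log2 expression values, so a difference of 1 is a doubling, and levels of different probe sets were not compared with each other.

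FAM72A encodes a small protein that binds the uracil DNA glycosylase UNG and promotes its degradation, a role worked out in B cells that mutate their antibody genes, largely in mice. It is also known as a gene of proliferating cells, among them neural progenitors. SRGAP2 encodes a GTPase-activating protein with a membrane-bending F-BAR domain that acts on neuronal migration and on the maturation of synapses. The human lineage duplicated the stretch of chromosome 1 that holds both, which gave each FAM72 copy an SRGAP2 copy nearby. SRGAP2C is a truncated copy whose protein binds and inhibits that of SRGAP2, and FAM72A and SRGAP2 stand head to head and are read in opposite directions.

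The promoter windows of FAM72A, FAM72C, FAM72D and SRGAP2 are shown because FAM72A and SRGAP2 start close together and because these FAM72 copies share this stretch. They come from RefSeq on GRCh38.p14, each with 250 bases before and 50 after an annotated start site, and lie at chr1:206202790-206203089 on the minus strand for FAM72A, chr1:143971937-143972236 on the minus strand for FAM72C, chr1:145095724-145096023 on the plus strand for FAM72D and chr1:206203291-206203590 on the plus strand for SRGAP2. Capitals mark CCAAT boxes, the motif of the factor NF-Y, which reads ATTGG where it lies on the opposite strand, and the CHR, the cell cycle genes homology region bound by the DREAM and MYB-MuvB complexes, which reads TTCAAA here because it lies on the opposite strand.
FAM72A: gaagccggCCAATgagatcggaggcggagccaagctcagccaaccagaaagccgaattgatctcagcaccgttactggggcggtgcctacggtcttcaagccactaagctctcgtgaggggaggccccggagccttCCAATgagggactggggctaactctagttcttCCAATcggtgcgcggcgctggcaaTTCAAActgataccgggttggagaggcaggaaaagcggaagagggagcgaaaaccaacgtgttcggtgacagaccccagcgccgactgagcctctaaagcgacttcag
FAM72C: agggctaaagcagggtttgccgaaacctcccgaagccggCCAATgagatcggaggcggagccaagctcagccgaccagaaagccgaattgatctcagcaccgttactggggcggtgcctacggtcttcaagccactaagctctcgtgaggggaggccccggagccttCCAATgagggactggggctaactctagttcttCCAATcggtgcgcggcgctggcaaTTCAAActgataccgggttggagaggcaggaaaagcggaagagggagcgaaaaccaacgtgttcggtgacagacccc
FAM72D: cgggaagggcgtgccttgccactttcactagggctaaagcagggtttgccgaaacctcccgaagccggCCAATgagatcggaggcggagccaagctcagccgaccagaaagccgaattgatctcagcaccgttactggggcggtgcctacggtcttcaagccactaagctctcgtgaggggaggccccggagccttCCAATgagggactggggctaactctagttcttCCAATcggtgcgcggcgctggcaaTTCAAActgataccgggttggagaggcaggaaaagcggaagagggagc
SRGAP2: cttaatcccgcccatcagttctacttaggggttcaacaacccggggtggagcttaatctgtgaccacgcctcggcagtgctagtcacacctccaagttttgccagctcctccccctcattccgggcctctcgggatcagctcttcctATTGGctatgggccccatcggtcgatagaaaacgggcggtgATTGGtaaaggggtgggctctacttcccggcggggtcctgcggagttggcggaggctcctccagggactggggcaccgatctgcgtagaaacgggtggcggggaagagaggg

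The start sites used for FAM72A and SRGAP2 were 702 bases apart, and those of FAM72D and SRGAP2B 646 bases apart. FAM72A had 4 windows in the reference, FAM72C 2 and FAM72D 3. FAM72B had no window there, so its promoter is not described. The FAM72A window nearest to SRGAP2 and the windows of FAM72C and FAM72D most like it were taken, and of the 6 others 1 held a CHR. Over their shared stretch the FAM72A and FAM72C windows had 1 mismatch in 269 bases, FAM72A and FAM72D had 1 in 240, and FAM72C and FAM72D were identical over 271 bases. Each of these 3 windows carried 3 CCAAT boxes on the strand of the gene and 1 CHR downstream of the last of them. The CHR began at position -58 in FAM72A, at -27 in FAM72C and at 3 in FAM72D, counted from the annotated start, while its distance from the last CCAAT box was the same in all of them. The SRGAP2 window carried 2 CCAAT boxes on the opposite strand and no CHR. The windows of SRGAP2B, 99.7% identical to SRGAP2, and of SRGAP2C, 95.9% identical, had the same 2 boxes.

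The motifs searched on both strands were TTTGAA and TTCGAA for the CHR, CCAAT, the E2F forms TTTCCCGC, TTTCGCGC, TTTGCCGC and TTTGGCGC, and the E-box CACGTG, with no overlap between CHR and CCAAT matches in the windows shown. None of the FAM72 or SRGAP2 windows used held an E2F form or the E-box. Among all 35116 promoter windows of the same length 16.4% held a CHR, 34.6% a CCAAT box and 1.91% a CHR with at least 2 CCAAT boxes, the arrangement of the FAM72 windows. An E2F form stood in 3.31% and the E-box in 7.26%. For comparison, 67.1% of the 70 windows of G2/M genes held a CHR, 31.4% held it with at least 2 CCAAT boxes and 5.71% held an E2F form. In the 67 windows of G1/S and DNA replication genes the CHR was in 5.97% and an E2F form in 40.3%. The 8 genes whose array profiles were most like the FAM72 mean, named further below, had 10 windows. Of these 20.0% held a CHR and 0 held it with at least 2 CCAAT boxes. A match describes letters in the window and is not evidence of a bound site.

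**Figure D1:**
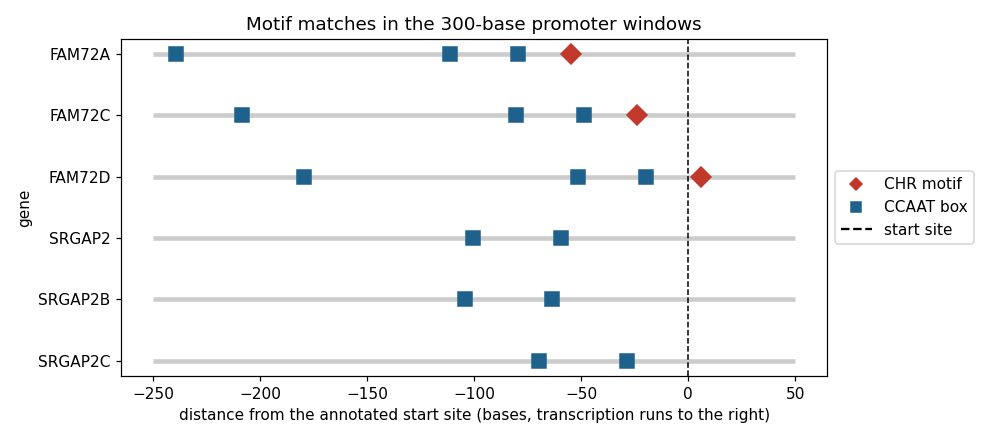
Positions of CHR matches (diamonds) and CCAAT boxes (squares) in the 300-base promoter windows of 6 genes, as distance in bases from the annotated start site (dashed line). The FAM72A, FAM72C and FAM72D windows share 3 CCAAT boxes followed by 1 CHR, shifted with the annotated start, and the SRGAP2 windows have 2 CCAAT boxes and no CHR. FAM72B had no window.

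Between 12982 and 13633 genes lay above background on an array, 73.4% to 77.1%. The KDM6B siRNA arrays agreed less with each other than the other pairs did (r = 0.974 across genes, against 0.994 to 0.996). A gap of over 1 log2 unit between its arrays was found in 906 genes, against 6 in the GSK-J4 pair, 8 in the DMSO pair and 3 in the control siRNA pair. KDM6B itself, the siRNA target, stood at 7.22 and 5.76 with KDM6B siRNA and at 8.27 and 8.35 with control siRNA. Both KDM6B siRNA arrays were lower than both control arrays, and replicate 2 far more so. The log2 difference of -1.82 (SE 0.39, 95% confidence interval -2.72 to -0.93) did not pass limma's test (adjusted p = 0.0878). With replicate 1 left out it was -2.56 (limma, adjusted p = 8.63e-05) and with replicate 2 left out -1.09 (limma, adjusted p = 0.00802). Such a fit takes the spread of the remaining array from the other groups. KDM6B stood at 9.41 and 9.18 with GSK-J4 and at 8.17 and 8.47 with DMSO, a difference of 0.98 that did not pass (limma, adjusted p = 0.25). It did pass in limma fits of the 4 drug arrays alone (adjusted p = 0.0103), with array weights (adjusted p = 0.0121) and without either KDM6B siRNA array (adjusted p = 0.00279).

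With GSK-J4 the FAM72 transcripts were far lower than with DMSO, and the mean of FAM72A, FAM72B and FAM72D was 33.8% of its DMSO level. FAM72A had log2 values of 7.59 and 7.67 with GSK-J4, against 9.22 and 9.18 with DMSO. FAM72B, the copy beside SRGAP2C, had 7.85 and 8.03 with GSK-J4, against 9.64 and 9.53 with DMSO. FAM72D had 8.07 and 8.13 with GSK-J4, against 9.56 and 9.61 with DMSO. For each of them both GSK-J4 arrays lay more than 1 log2 unit below both DMSO arrays, and the arrays of a group were close together. The differences were -1.57 for FAM72A, -1.65 for FAM72B and -1.48 for FAM72D, which are 2.97-fold, 3.13-fold and 2.79-fold lower levels. FAM72C, which stood at 8.46 and 8.38 with GSK-J4 against 9.88 and 9.85 with DMSO, was 2.73-fold lower. Since this comparison chose the genes, nothing is read from these sizes, nor from their standing among the 1.41% of all genes that fell and the 2.29% that rose. Both GSK-J4 arrays lay below both DMSO arrays in 28.6% of all genes.

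**Figure D2:**
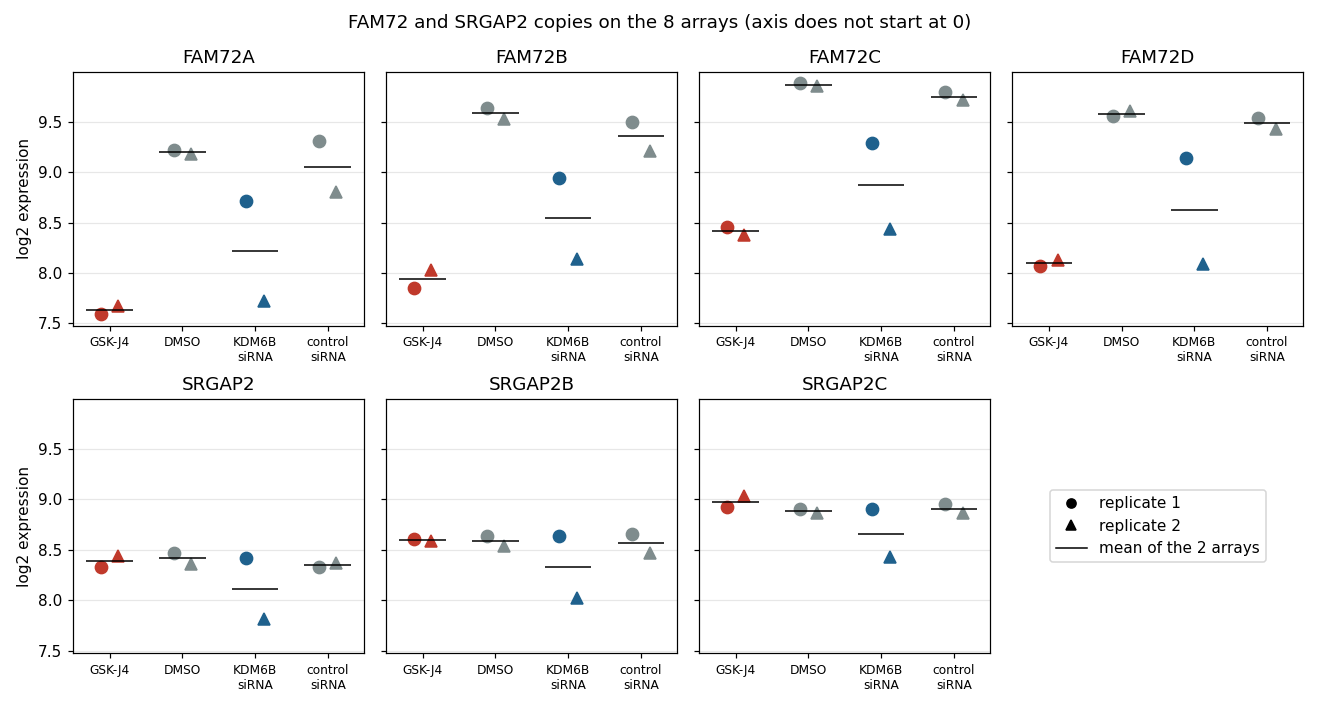
Log2 expression of the 4 FAM72 and 3 SRGAP2 copies on the 8 arrays, by group, with circles for replicate 1, triangles for replicate 2 and a line at the mean of the 2 arrays. The GSK-J4 arrays of each FAM72 copy sit below its DMSO arrays, the 2 KDM6B siRNA arrays of every copy lie apart, and the SRGAP2 copies overlap between groups except SRGAP2C with GSK-J4.

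With KDM6B siRNA the FAM72 genes were lower than with control siRNA on both arrays, but by very different amounts, and none passed the test. FAM72A had 8.71 and 7.72 with KDM6B siRNA, against 9.31 and 8.80 with control siRNA. The difference was -0.84 (SE 0.30, 95% confidence interval -1.52 to -0.15; limma, adjusted p = 0.253). Its lower KDM6B siRNA array was the same one on which KDM6B was lowest. FAM72B had 8.94 and 8.14 with KDM6B siRNA, against 9.50 and 9.21 with control siRNA, a difference of -0.82 (SE 0.24, limma, adjusted p = 0.179). FAM72D had 9.14 and 8.09 with KDM6B siRNA, against 9.54 and 9.43 with control siRNA, a difference of -0.87 (SE 0.28, limma, adjusted p = 0.215). The groups did not overlap in any of the 3 genes. FAM72C, at 9.29 and 8.44 with KDM6B siRNA against 9.79 and 9.72 with control siRNA, differed by -0.89 (SE 0.24, limma, adjusted p = 0.147). Of all genes 0.492% fell and 0.113% rose at an adjusted p under 0.05, 107 in all, while 2588 had an unadjusted p under 0.05. In 19.7% of all genes both arrays with KDM6B siRNA were lower than both with control siRNA, so the order of the arrays alone does not set a gene apart. The interval and SE use the spread that the 4 groups share and are too narrow for the KDM6B siRNA pair.

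The size of the siRNA difference rested on which KDM6B siRNA array was used. The mean of the 3 FAM72 genes had a log2 difference from the control mean of -0.37 on replicate 1 and of -1.31 on replicate 2. With replicate 1 left out the differences were -1.33 for FAM72A, -1.22 for FAM72B and -1.39 for FAM72D. With replicate 2 left out they were -0.34 for FAM72A, -0.42 for FAM72B and -0.35 for FAM72D. The part that the state of either array plays in the difference was not tested. The mean of the 3 genes was at 55.8% of its control level with KDM6B siRNA over both arrays, and their GSK-J4 difference minus their siRNA difference was -0.725, a description only because it contains the comparison that chose them. That value was -0.253 without KDM6B siRNA replicate 1 and -1.20 without replicate 2.

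SRGAP2, the partner of FAM72A across the shared promoter region, did not differ between groups beyond their spread. It stood at 8.33 and 8.44 with GSK-J4 and at 8.47 and 8.36 with DMSO, a difference of -0.03. It stood at 8.42 and 7.81 with KDM6B siRNA and at 8.33 and 8.37 with control siRNA, a difference of -0.23 (SE 0.19, 95% confidence interval -0.67 to 0.20; limma, adjusted p = 0.637). The groups overlapped in both comparisons, and the only low value was that of KDM6B siRNA replicate 2. With replicate 1 left out SRGAP2 differed by -0.54 and passed (limma, adjusted p = 0.0182), and with replicate 2 left out the sign turned to 0.07 (limma, adjusted p = 0.837). With GSK-J4 SRGAP2B differed by 0.01 (95% confidence interval -0.44 to 0.46, limma, adjusted p = 0.992) and SRGAP2C by 0.09 (-0.28 to 0.47, limma, adjusted p = 0.839). With KDM6B siRNA both truncated copies differed by -0.24 (limma, adjusted p = 0.640 for SRGAP2B and 0.562 for SRGAP2C). Without replicate 1 SRGAP2B passed at -0.55 (limma, adjusted p = 0.0216) and SRGAP2C at -0.48 (limma, adjusted p = 0.0281), and without replicate 2 SRGAP2B stood at 0.07 (limma, adjusted p = 0.845) and SRGAP2C at -0.01 (limma, adjusted p = 0.989).

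**Figure D3:**
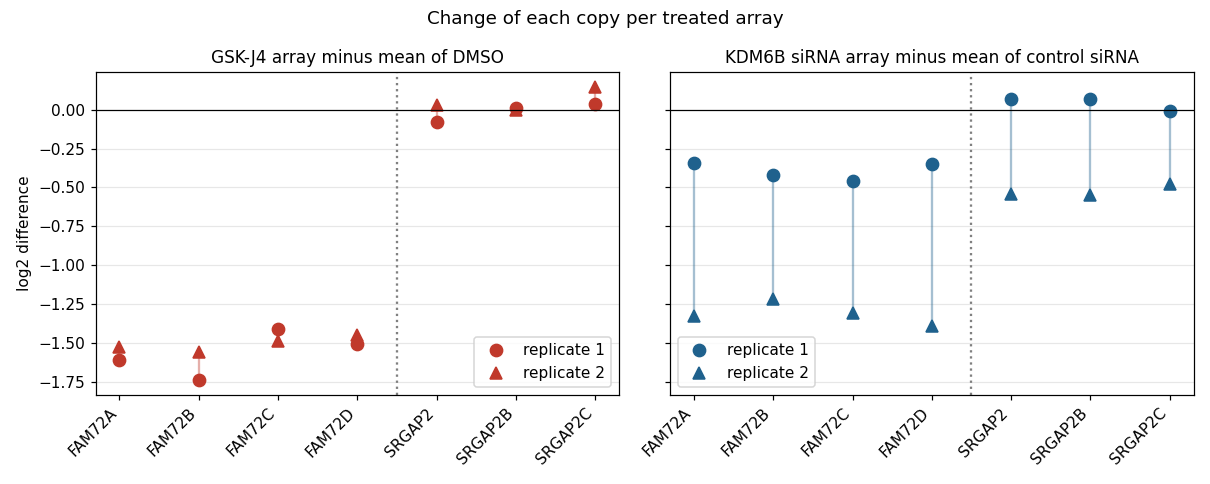
Log2 difference of each treated array from the mean of its control arrays, for 4 FAM72 copies (left of the dotted line) and 3 SRGAP2 copies, with GSK-J4 on the left and KDM6B siRNA on the right. The 3 FAM72 members average -1.62 and -1.51 on the GSK-J4 arrays and -0.37 and -1.31 on the KDM6B siRNA arrays, where the SRGAP2 copies average 0.04 and -0.52.

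Set against the neighbour on the same array, the FAM72 genes stayed lower. Relative to the control siRNA mean, FAM72A minus SRGAP2 stood at -0.41 on KDM6B siRNA replicate 1 and at -0.79 on replicate 2, while the control siRNA arrays differed from each other by 0.54. FAM72D minus SRGAP2B stood at -0.42 and -0.84, with control arrays 0.08 apart, and FAM72B minus SRGAP2C at -0.41 and -0.74, with control arrays 0.20 apart. In each gene pair both arrays with KDM6B siRNA were lower than both with control siRNA, an order found in 19.7% of single genes. The share among other gene pairs was not worked out, so nothing is read from this order. The exact two-sided permutation test gave p = 0.333, the smallest value that 2 arrays against 2 allow. It could not pass, so nothing is read from it. The gene pairs are near-identical copies and are not independent observations. On the GSK-J4 arrays FAM72A minus SRGAP2 stood at -1.53 and -1.55 against the DMSO mean, FAM72D minus SRGAP2B at -1.52 and -1.45 and FAM72B minus SRGAP2C at -1.78 and -1.71. These GSK-J4 gaps are a description only, since that comparison chose the FAM72 genes. The spread between replicates was smaller in these gaps with KDM6B siRNA than in the FAM72 values themselves, and SRGAP2 and its copies were also low on replicate 2.

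Ordered by level, each FAM72 gene was highest with DMSO, then with control siRNA, then with KDM6B siRNA and lowest with GSK-J4. The places of DMSO and GSK-J4 follow from the comparison that chose these genes, so the order is a description only. It also sets arrays at 24 h of drug or vehicle beside arrays at 48 h of siRNA. For FAM72A the DMSO and control siRNA arrays overlapped, at a gap of 0.15 between means. For FAM72B the gap was 0.23 and for FAM72D 0.1, both with no overlap. The gap between KDM6B siRNA and GSK-J4 was 0.59 for FAM72A and 0.60 for FAM72B, with the groups apart, and 0.51 for FAM72D, where they overlapped. For SRGAP2 each group overlapped the next in the order, with gaps of 0.03, 0.04 and 0.23.

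The profiles of the 4 FAM72 probe sets were alike. After the mean of the 4 arrays of each experiment was taken off, their profiles over the 8 arrays correlated with r of 0.983 to 0.996, and those of SRGAP2, SRGAP2B and SRGAP2C with r of 0.93 to 0.943. The 8 arrays include those of the comparison that chose the FAM72 genes, and over the 4 siRNA arrays alone r was 0.959 to 0.994 for the FAM72 copies and 0.95 to 0.986 for the SRGAP2 copies. The copies are nearly identical in sequence and the probe sequences were not used here, so cross-hybridization was not tested and the copies cannot be counted as independent genes. Between the FAM72 mean and SRGAP2 r was 0.554 over the 8 arrays, 0.302 over the 4 drug arrays and 0.893 over the 4 siRNA arrays. These points share arrays, and on KDM6B siRNA replicate 2 both were at their lowest among the siRNA arrays.

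Of 13323 other genes above background in at least 1 group, the 8 whose profiles were most like that of the FAM72 mean were LRRC8A (r = 0.996), CCNB1 (0.992), TBCCD1 (0.992), TTC8 (0.99), TACC3 (0.99), FOXA2 (0.99), CBX3 (0.988) and RPS6KB2 (0.988), each over 8 arrays. This likeness uses the GSK-J4 and DMSO values on which the FAM72 genes were selected and is a description. Over the 4 siRNA arrays alone r was 0.98 for CCNB1 and 0.992 for TACC3. CCNB1, which encodes the mitotic cyclin B1, and TACC3, a spindle protein, had the largest GSK-J4 differences among the 8. CCNB1 stood at 8.44 and 8.48 with GSK-J4, 9.64 and 9.69 with DMSO, 9.34 and 8.72 with KDM6B siRNA and 9.81 and 9.74 with control siRNA. TACC3 had a difference of -1.05 with GSK-J4 and of -0.59 with the siRNA. In both, KDM6B siRNA replicate 2 was the lowest siRNA array and both GSK-J4 arrays were below both DMSO arrays. The other 6 moved by less, such as LRRC8A, a subunit of a volume-regulated anion channel, which had a difference of -0.27 with GSK-J4 and of -0.15 with the siRNA. The genes most like SRGAP2 were CDK16 (r = 0.997), TAF4B (0.993), WDR18 (0.99), GPX7 (0.987), TAF5L (0.987), PRIMA1 (0.987), PSIP1 (0.985) and SLC68A1 (0.985), and all of these were lowest on KDM6B siRNA replicate 2.

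**Figure D4:**
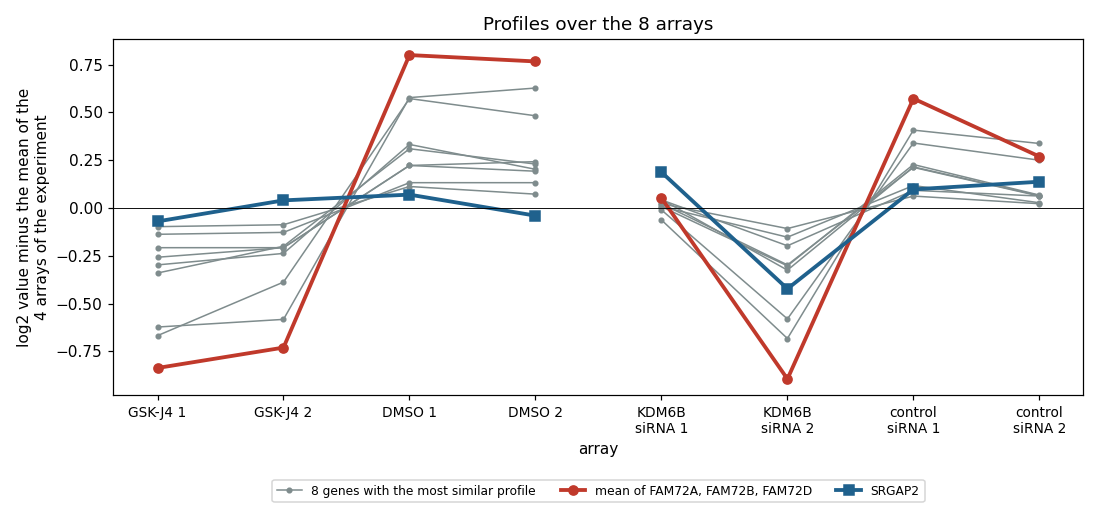
Log2 value minus the mean of the 4 arrays of the same experiment, per array, for the mean of FAM72A, FAM72B and FAM72D (thick red line), SRGAP2 (thick blue line) and the 8 genes with the profile most like FAM72 (grey lines). The FAM72 line and the grey lines are lowest on the GSK-J4 arrays and on KDM6B siRNA replicate 2, and SRGAP2 is low on that siRNA array alone.

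Genes of G2 phase and mitosis had low medians in both experiments. With GSK-J4 20 of the 68 measured G2/M genes fell and 0 rose, beside 1.41% of all genes that fell. The median was -0.71 against -0.02 over all genes. In 67 of the 68 both GSK-J4 arrays lay below both DMSO arrays, against 28.6% of all genes. BUB1, a spindle checkpoint kinase, stood at 7.13 and 7.10 with GSK-J4 against 8.67 and 8.51 with DMSO (-1.48, SE 0.12, limma, adjusted p = 0.000788). CENPA, the centromeric histone H3 variant, fell by 1.36 on the log2 scale (limma, adjusted p = 0.0207), CDKN3, a phosphatase that acts on cyclin-dependent kinases, by 1.35 (limma, adjusted p = 0.00949), and PSRC1, a spindle protein, by 1.23 (limma, adjusted p = 0.0158). The differences of the list ran from -1.72 to 0.34. With KDM6B siRNA 1 of the 68 fell, the microtubule-binding GTSE1 (-0.78, SE 0.12, limma, adjusted p = 0.0446), beside 0.492% of all genes. In 60 of the 68 both arrays with KDM6B siRNA were lower than both with control siRNA, against 19.7% of all genes. The median was -0.63 against 0.01 over all genes, and the 3 FAM72 differences of -0.82 to -0.87 lay within its range of -1.27 to -0.12. The siRNA calls depended on the arrays kept. More of the 68 fell when either KDM6B siRNA array was left out, where far more of all genes fell too, and none fell without any other array. With GSK-J4 60 fell when either KDM6B siRNA array was left out of the shared spread, where 6.88% of all genes fell. Without a GSK-J4 or DMSO array 1 or 2 fell, beside 0.017% to 0.0622% of all genes, and without a control siRNA array 6 fell, beside 0.243% of all genes. In RNA from whole cultures, fewer cells in a phase and less RNA per cell cannot be told apart.

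Genes of G1/S and DNA replication shifted more with the siRNA than with the inhibitor, though that difference between the lists was not tested. With GSK-J4 6 of 58 fell, beside 1.41% of all genes, with a median of -0.36. Among them were the replication factor MCM10 (-0.95, limma, adjusted p = 0.0374), the helicase HELLS (-0.86, limma, adjusted p = 0.00949) and POLE2, a subunit of a replicative DNA polymerase (-0.80, limma, adjusted p = 0.0280). With KDM6B siRNA 8 of 58 fell, beside 0.492% of all genes, with a median of -0.73. They included CCNE2, which encodes cyclin E2 (-1.64, limma, adjusted p = 0.0357), CLSPN, a replication checkpoint protein (-1.55, limma, adjusted p = 0.0485), and RRM2, a subunit of ribonucleotide reductase (-1.26, limma, adjusted p = 0.0113). RRM2 stood at 9.23 and 9.07 with KDM6B siRNA against 10.46 and 10.38 with control siRNA, so its arrays lay close together where the FAM72 arrays did not. Here too more of the 58 fell with the siRNA when either KDM6B siRNA array was left out, where far more of all genes fell, and none fell without any other array. With GSK-J4 25 fell without either KDM6B siRNA array, where 6.88% of all genes fell, and at most 1 without any other.

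None of the 13 measured genes of uracil removal, the pathway that FAM72A acts on through UNG, passed in either comparison. Over all genes 1.41% fell and 2.29% rose with GSK-J4, and 0.492% fell and 0.113% rose with KDM6B siRNA. At such shares a count of 0 of 13 does not set the pathway apart. With a trended and robust prior variance 1 of the 13 fell with KDM6B siRNA, where 148 of all genes passed. UNG, the glycosylase itself, stood at 6.95 and 7.31 with GSK-J4 against 8.04 and 7.87 with DMSO (-0.82, SE 0.26, limma, adjusted p = 0.152). It stood at 7.74 and 6.85 with KDM6B siRNA against 7.91 and 7.94 with control siRNA (-0.63, SE 0.26, limma, adjusted p = 0.329). In each comparison both treated arrays lay below both control arrays, as in 28.6% of all genes with GSK-J4 and 19.7% with KDM6B siRNA. Among the 13 genes this order was found in 6 with GSK-J4 and in 8 with KDM6B siRNA. The reverse order was found in 2 with GSK-J4 and in 0 with KDM6B siRNA. UNG too was lowest on KDM6B siRNA replicate 2 among the siRNA arrays. The medians over the pathway were -0.11 with GSK-J4 and -0.22 with KDM6B siRNA. SMUG1, another uracil DNA glycosylase, had a difference of -0.35 with GSK-J4 and of 0.14 with the siRNA, and TDG, the thymine DNA glycosylase, by -0.61 and 0.20. DUT, which keeps dUTP out of the nucleotide pool, had a difference of -0.30 with GSK-J4 and of -0.63 with the siRNA. FEN1, a flap endonuclease shared with replication, had a difference of -0.64 with GSK-J4 and of -1.07 with the siRNA, PARP1 by -0.38 and -0.66, and the ligase LIG1 by -0.02 and -0.71. The repair genes MBD4, APEX1, APEX2, POLB, XRCC1 and LIG3 had a difference of -0.11 to 0.50 with GSK-J4 and of -0.35 to -0.02 with the siRNA. Some of the 13 did pass in each comparison when either KDM6B siRNA array was left out, where far more of all genes passed too.

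Cytidine deaminases, which make uracil in DNA or RNA, showed no call either. At the shares over all genes given above, this does not set them apart. Of 9 measured, APOBEC1 and APOBEC4 lay below background on every array. APOBEC3B differed by -0.50 with GSK-J4 (limma, adjusted p = 0.297) and by -0.21 with KDM6B siRNA. It was near the background, above it on 0 GSK-J4 arrays and 1 KDM6B siRNA array. APOBEC3H was above background on 0 arrays of either siRNA group, and APOBEC3G on 1 GSK-J4 array and 1 KDM6B siRNA array. APOBEC3A, APOBEC3C, APOBEC3D, APOBEC3F, APOBEC3G and APOBEC3H had a difference of -0.23 to 0.39 with GSK-J4 and of -0.36 to -0.01 with the siRNA. Of 15 mismatch repair genes 0 passed with GSK-J4, where 1.41% of all genes fell and 2.29% rose. With KDM6B siRNA 2 fell, beside 0.492% of all genes. PCNA, the sliding clamp of replication, stood at 9.90 and 9.43 with KDM6B siRNA against 10.72 and 10.59 with control siRNA (limma, adjusted p = 0.0485), and RFC2, a subunit of its loader, fell by 0.73 on the log2 scale (limma, adjusted p = 0.0478). Both act in DNA replication as well. Both siRNA calls were lost when an array of any other group was left out. More of the 15 fell with the siRNA without KDM6B siRNA replicate 1, and some fell with GSK-J4 without either KDM6B siRNA array. Far more of all genes passed in those fits too.

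Around SRGAP2, its relatives SRGAP1 and SRGAP3, and ARHGAP4 of the same family, had a difference of -0.16 to -0.09 with GSK-J4 and of -0.09 to 0.37 with the siRNA, and none passed. Of 20 measured genes of the SLIT-ROBO guidance pathway and of SRGAP2 partners 0 passed with KDM6B siRNA and 2 with GSK-J4. Over all genes 1.41% fell and 2.29% rose with GSK-J4, while 0.492% fell and 0.113% rose with KDM6B siRNA. DLG4, the scaffold PSD-95 of excitatory synapses, stood at 7.06 and 7.19 with GSK-J4 against 6.03 and 5.82 with DMSO (1.20, SE 0.17, limma, adjusted p = 0.0112). HOMER1, a postsynaptic scaffold that binds SRGAP2, stood at 5.56 and 5.61 with GSK-J4 against 6.29 and 6.41 with DMSO (-0.77, SE 0.12, limma, adjusted p = 0.0143). These moved in opposite directions while SRGAP2 overlapped between the groups. SLIT2, a secreted ligand of the pathway, was below background on every array of 3 groups.

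No other gene measured near the members on chromosome 1 passed. Of the 3 nearest measured genes on either side of each member, leaving aside the FAM72 and SRGAP2 copies, 0 of 14 passed in either comparison. Over all genes 1.41% fell and 2.29% rose with GSK-J4, and 0.492% fell and 0.113% rose with KDM6B siRNA. At such shares a count of 0 of 14 does not set these genes apart. Beyond FAM72A and SRGAP2, IKBKE, an innate immune kinase, had a difference of -0.03 with GSK-J4 and of 0.02 with the siRNA. RASSF5, a RAS effector, stood at 6.24 and 6.28 with GSK-J4 against 6.76 and 6.79 with DMSO (-0.52, SE 0.17, limma, adjusted p = 0.163), and EIF2D, a translation factor, differed by -0.16. Near FAM72D, NBPF20, of a gene family also multiplied in humans, stood at 7.43 and 7.46 with GSK-J4 against 6.87 and 6.37 with DMSO (0.83, SE 0.21, limma, adjusted p = 0.0775). NBPF15, which neighbours both FAM72B and FAM72D, had a difference of 0.42 with GSK-J4 and of 0.22 with the siRNA. The NBPF genes are near-identical copies and their values carry the same uncertainty. Among 15 measured genes of other duplicated human loci, TBC1D3 rose with GSK-J4 (1.15, SE 0.18, limma, adjusted p = 0.0165) and 0 passed with KDM6B siRNA.

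Of 10 measured markers of the adrenergic neuroblastoma state 0 lay below background on all arrays of a comparison. Of 9 mesenchymal markers 2 did so in the siRNA comparison and 1 in the GSK-J4 comparison. On an array 73.4% to 77.1% of all genes lay above background, so presence does not tell the 2 states apart. With KDM6B siRNA 1 of the 10 adrenergic markers fell, TH, the first enzyme of catecholamine synthesis (-1.04, limma, adjusted p = 0.0196). The median of the list was -0.59. DBH had a larger difference of -2.32 that did not pass (limma, adjusted p = 0.0891). With GSK-J4 0 of the 10 passed. Of the 9 mesenchymal markers 0 passed in either comparison. Over all genes 1.41% fell and 2.29% rose with GSK-J4, and 0.492% fell and 0.113% rose with KDM6B siRNA. At such shares the counts of 0 do not set these marker lists apart. The Schwann cell markers ERBB3 and CDH19 and the B cell marker MS4A1 lay below background on every array, and the Schwann cell marker S100B, at 5.12 to 5.55, and the B cell markers PAX5, CD79A and CD79B lay above it.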

How the data were processed

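RNA from BE2C cells was labelled with a whole-transcript kit and hybridised to 8 arrays. For every probe set the authors deposited a log2 expression value on each array. Their processing notes name GCOS, the scanner software. How background, normalization and summarization were handled is not stated in the labels or methods. The values ran from 1.69 to 13.4 and the array medians were nearly equal, so a change in total RNA per cell would not show. Arrays give no read depth, so their number limits the precision.

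Of 24351 probe sets 17709 had 1 symbol in the platform annotation, 3739 transcript probe sets had none, and the brightest stood for each of the 20 genes with several, leaving 17687 genes. The test was limma's two-sided moderated test (lmFit, eBayes; version 3.58.1, run in R 4.3.3) on all 8 arrays with 1 coefficient per group, with 4 residual and 4.18 prior degrees of freedom and Benjamini-Hochberg adjustment over all genes at 0.05. The methods' t-test, other normalizations, filters, priors, array weights, a replicate block and leaving out each array were alternatives. Whether replicate numbers pair arrays was checked by correlating same-numbered deviations (r = 0.09 for GSK-J4 and DMSO, -0.04 for the siRNA groups), and nothing in the labels pairs them. The fit was tested on simulated data with 200 changed genes. Promoters came from RefSeq (GRCh38.p14) and were searched with Python 3.11.15 and aligned with Biopython 1.88.

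Named genes were the members, the measured genes of their copies, the SRGAP family, deaminases and uracil repair, up to 4 passing genes with the largest change per other list, the 8 most similar profiles and the 3 nearest measured genes on either side. The members and the 13 lists were chosen with earlier results of these data known.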

Additional observations from a re-analysis of the deposited data

Results flagged for a closer look

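Over all genes 163 passed a test of the difference between the effects, 132 with a higher and 31 with a lower GSK-J4 effect. In 2 of the genes named here the effect of GSK-J4 against DMSO differed from the effect of KDM6B siRNA against control siRNA by a test of the difference itself (limma, GSK-J4 effect minus siRNA effect). BUB1, a spindle checkpoint kinase, was lower with GSK-J4 by more than with the siRNA, with a difference of -1.06 (limma, adjusted p = 0.0321). Its GSK-J4 effect was -1.48 and its siRNA effect -0.42. TH, the first enzyme of catecholamine synthesis, had a GSK-J4 effect of 0.01 and a siRNA effect of -1.04, with a difference of 1.05 (limma, adjusted p = 0.0419). Exposure times differed between the experiments, 24 h with GSK-J4 and 48 h with siRNA, and the part this plays cannot be told apart from that of the agent.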

How the results depend on the processing

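Counts of calls moved with the setting more than the members' values did. With KDM6B siRNA 107 genes passed, but 0 when only the 4 arrays of the comparison were fitted, 27 with array weights, 4 with the replicate block, and, by the methods' t-test, 0 after Benjamini-Hochberg and 1257 at an unadjusted p under 0.05. Leaving out each array in turn gave 0 to 3518. With GSK-J4 654 genes passed, but 1908 with the 4 arrays alone, 2116 with array weights, 225 with the replicate block, and by the methods' t-test 0 after adjustment and 3324 unadjusted. Leaving out arrays gave 55 to 2537, and the highest count came without either KDM6B siRNA array, whose spread the fit shares. The cause of the other shifts was not tested.

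In all 10 settings that kept every array, FAM72A, FAM72B, FAM72D and SRGAP2 kept the sign of their siRNA difference and stayed short of the threshold. With the replicate block the adjusted p was 0.144 for FAM72A, 0.165 for FAM72B, 0.202 for FAM72D and 0.652 for SRGAP2. Leaving out arrays moved the siRNA difference between -1.33 and -0.34 for FAM72A, -1.22 and -0.42 for FAM72B, -1.39 and -0.35 for FAM72D and -0.54 and 0.067 for SRGAP2, the extremes being those without KDM6B siRNA replicate 1 and replicate 2. The GSK-J4 differences of the FAM72 genes stayed between -1.74 and -1.45 under every setting.

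A few small values changed sign, none past the threshold where the sign was turned. Without KDM6B siRNA replicate 2 the siRNA difference was 0.067 for SRGAP2, 0.068 for SRGAP2B (-0.547 without replicate 1) and 0.035 for DLG4. For DLG4 leaving out arrays gave -0.292 to 0.065, the highest without control siRNA replicate 2, and for TBC1D3 -0.000737 to 0.512, the lowest without control siRNA replicate 1. The GSK-J4 difference of SRGAP2, for which no test is given, was -0.029 with all arrays. It was 0.025 without DMSO replicate 1 and 0.025 without GSK-J4 replicate 1. With GSK-J4 TH ranged from -0.038, without DMSO replicate 2, to 0.048, and was -0.0055 without GSK-J4 replicate 1. SRGAP2B ranged from -0.045, without DMSO replicate 2, to 0.059, and was -0.0093 after quantile normalization. No other probe set could stand for a member, since each has 1.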
